A study of Mus musculus with 6 samples.

Results

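Cells with a high mitochondrial RNA share made up 184 of the 973 cells retained from the hippocampal CA1 region of 6 mice, or 18.9%. They were chosen by a measured value, the share of unique molecular identifiers (UMIs) that fell on genes of the mitochondrial genome. A barcode belongs to them when it holds more than 1000 and up to 8000 detected genes, with more than 20% but at most 40% of its UMIs mitochondrial. The other 789 cells, of the same gene range and at or below 20%, are called low cells here and were compared with the high cells of the same mouse. All levels of non-mitochondrial genes below are per non-mitochondrial UMI, so that the mitochondrial UMIs themselves cannot dilute them.

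The data are UMI counts from Drop-seq, which pairs each dissociated cell with a bead that carries its own barcode, inside a droplet. Male C57Bl6 mice of postnatal day 28 received a single intraperitoneal injection of placebo (mice 1, 3 and 5) or 5000 IU/kg recombinant human erythropoietin (EPO; mice 2, 4 and 6), and CA1 was dissociated with papain 6 h later. Each library is 1 mouse, with 3 mice per group. The labels also number the libraries D1 (placebo mice 1 and 3, EPO mouse 2) or D2 (placebo mouse 5, EPO mice 4 and 6), and the meaning of D is not stated.

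Mitochondria keep a small circular genome that encodes ribosomal RNAs, transfer RNAs and the mRNAs of a few subunits of the respiratory chain. The remaining subunits of oxidative phosphorylation (OXPHOS), and all other mitochondrial proteins, are encoded in the nucleus, translated on cytosolic ribosomes and imported. A whole cell therefore holds mitochondrial RNA, cytosolic mRNA and RNA that stays in the nucleus, such as Malat1 and Meg3. In droplet data a barcode with a high mitochondrial share is commonly removed as low in quality, although cell types with many mitochondria also have high shares.

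Some barcode sequences occurred in more than 1 library. 59 barcode sequences occurred with UMIs in both placebo mouse 1 and EPO mouse 4, and 26 of them were retained in both. The paired profiles had a median correlation of 0.763 across genes, against 0.408 between different barcodes of these libraries, with 3.16 to 5.87 times more UMIs in placebo mouse 1. All 26 were low cells in placebo mouse 1, whereas 3 of them counted as high in EPO mouse 4. How these barcodes came to be shared was not tested. Retained barcodes whose sequence occurred in more than 1 library numbered 78, 15 of them high, and results are also given without them.

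The share of high cells differed widely between mice of the same group. It was 28.8% (95% Clopper-Pearson interval 22.0 to 36.4%, counting error only) in placebo mouse 1, 14.0% (5.30 to 27.9%) in placebo mouse 3 and 9.24% (5.47 to 14.4%) in placebo mouse 5. It was 43.2% (35.1 to 51.6%) in EPO mouse 2, 17.3% (13.0 to 22.4%) in EPO mouse 4 and 1.83% (0.379 to 5.25%) in EPO mouse 6. The highest and the lowest share were thus both found in EPO mice. The mean was 17.3% ± 10.2 in placebo and 20.8% ± 20.9 in EPO mice (SD, n = 3 each), a difference of 3.46 percentage points (p = 0.8 in a two-sided exact permutation over mice, which cannot go below 0.1 with 3 against 3). Within D1 the means were 21.4% in placebo and 43.2% in EPO mice, and within D2 they were 9.24% and 9.59%. With D as a block the difference was 11.1 points (exact permutation test over 9 arrangements, p = 0.333). Leaving out EPO mouse 2 turned the difference to -7.76 points and leaving out placebo mouse 5 to -0.589 points. Without shared barcodes it was 2.67 points.

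The mice ranked in the same order by the median mitochondrial share of their low cells. It was 12.4% in EPO mouse 2, 11.8% in placebo mouse 1, 9.52% in EPO mouse 4, 7.04% in placebo mouse 3, 5.75% in placebo mouse 5 and 3.45% in EPO mouse 6. In the plot of the mitochondrial share of each cell, no gap separates high from low cells in any mouse. The 27 cells just above the boundary (20 to 21%) and the 18 just below it (19 to 20%) had median non-mitochondrial UMIs of 2934 and 2957. Meg3 took 4.34% and 4.03% of these UMIs, and Malat1 11.2% and 11.1%.

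**Figure D1:**
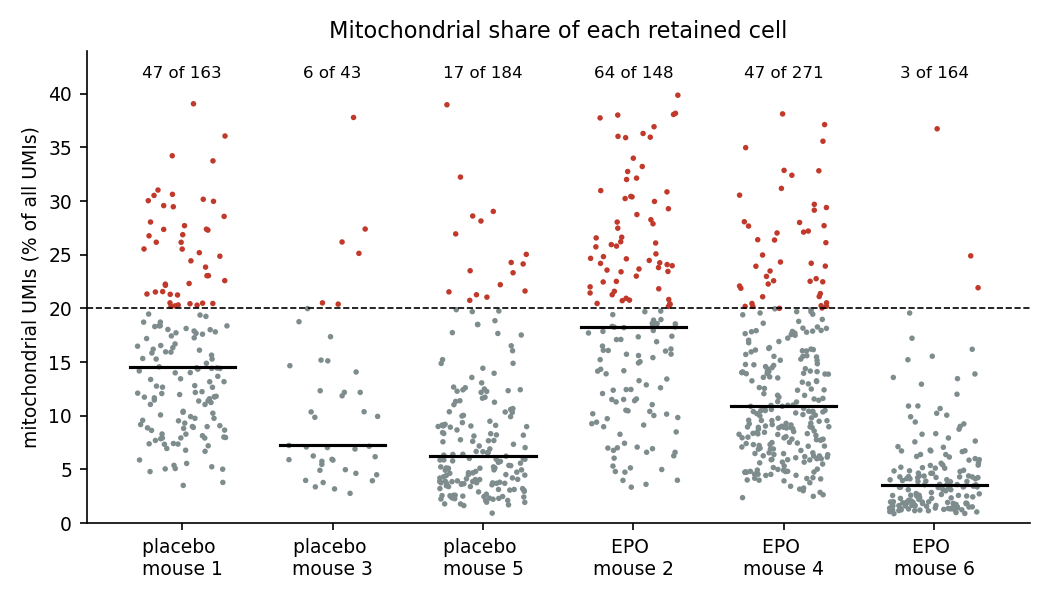
Mitochondrial share of all UMIs (%) in each retained cell, by mouse. Points above the dashed line at 20% are the high cells (red), horizontal bars are medians over all retained cells, and the numbers at the top count high cells of all cells; the counts run from 3 of 164 in EPO mouse 6 to 64 of 148 in EPO mouse 2.

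EPO mouse 6 had 3 high cells, under the minimum of 5, so comparisons of high with low cells within a mouse rest on the other 5 mice. These are 3 placebo and 2 EPO mice, with 6 high cells in placebo mouse 3 and 17 to 64 in the others.

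The mitochondrial UMIs of the high cells were mostly ribosomal RNA. mt-Rnr2, the large ribosomal RNA of the mitochondrion (chrM:1094-2675, GRCm38), made up 84.7% ± 7.64 of mitochondrial UMIs in high and 86.9% ± 2.41 in low cells (SD, n = 5 mice). Its level was 224734 ± 12485 CPM of all UMIs in high and 72550 ± 15804 in low cells. The rule fixes that difference. mt-Rnr1, the small ribosomal RNA, followed at 3.89% ± 0.959 and 2.84% ± 0.387 of mitochondrial UMIs.

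The deposited counts hold 10 of the 13 mitochondrial mRNAs. Together these took 3.09% of all UMIs in high cells (1.76 to 6.54% over 5 mice) and 0.835% in low cells (0.548 to 1.10%). mt-Nd5, mt-Nd1 and mt-Cytb, subunits of respiratory complexes I and III, were the most abundant of them. mt-Nd5 was at 5835, 17459 and 5319 CPM of all UMIs in the high cells of placebo mice 1, 3 and 5, and at 8541 and 6589 in those of EPO mice 2 and 4. mt-Nd1 was at 3873, 13934 and 3443, and at 6032 and 3518. mt-Cytb was at 3281, 10828 and 3009, and at 5807 and 2613. In low cells these genes were at 1527 to 2413, 1044 to 2497 and 1030 to 2275 CPM, in that order. Placebo mouse 3 stood apart in each of the 3 genes, and mRNA made up 23.0% of the mitochondrial UMIs of its 6 high cells, against 7.03 to 11.3% in the other mice. As shares of mitochondrial UMIs, mt-Nd1 (2.26% and 2.05%) and mt-Cytb (1.87% and 1.91%) differed between high and low cells by less than their spread over mice. mt-Nd5 was at 3.23% ± 1.67 and 2.50% ± 0.485, and mt-Nd6 at 0.428% ± 0.483 and 0.171% ± 0.0349, each higher in 4 of 5 mice. The high cells of placebo mouse 3 had mt-Nd6 at 1.28%, and those of the other mice at 0.123 to 0.331%. mt-Co2 and mt-Co3 had 0 UMIs in high cells and 1 UMI each in low cells, and mt-Atp6 had 1 and 0. The summed mRNA share therefore leaves out these and the missing mRNAs, and the reason for their low counts was not tested.

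High cells held fewer UMIs outside the mitochondrial genome. The medians per mouse were 2445 to 2823 non-mitochondrial UMIs in high cells and 3672 to 4850 in low cells of the 5 mice, while mitochondrial UMIs had medians of 810 to 1133 and 317 to 665. The rule uses both numbers, so this is a description. Genes detected had medians of 1294 to 1484 in high and 1638 to 2255 in low cells. With each cell thinned to 1000 non-mitochondrial UMIs, there were 644 ± 11.5 genes in high and 688 ± 40.1 in low cells (SD over 5 mice). High cells had fewer in 4 of 5 mice. Among glutamatergic-like cells, there were 647 ± 9.95 genes in high and 726 ± 17.3 in low cells, fewer in 5 of 5 mice.

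Clustering without mitochondrial genes placed high cells mainly among neurons. Classes were named from marker genes, and the same cells were glutamatergic-like at resolution 0.5, where 43 OPC-like cells formed a cluster of their own, and without integration between treatments. The name is weakest for cluster 1, which holds 75 of the high glutamatergic-like cells. None of its 10 leading genes is a glutamatergic marker, and its mean log level of glutamatergic markers, 0.693, was close to that of oligodendrocyte markers, 0.619. Of the 184 high cells, 134 were glutamatergic-like (72.8%), 21 GABAergic-like (11.4%), 21 astrocyte-like (11.4%) and 6 oligodendrocyte-like (3.26%), with 1 endothelial-like and 1 microglia-like cell. Pooled over mice, high cells were 45.7% of the 46 GABAergic-like, 28% of the 75 astrocyte-like, 21.6% of the 619 glutamatergic-like and 3.41% of the 176 oligodendrocyte-like cells. The mice contributed different mixes of classes, so these pooled shares give no order of the classes. In mice with at least 5 cells of a class, the share of high cells ran from 1.85 to 53.9% of glutamatergic-like, 11.1 to 50% of GABAergic-like (3 mice), 0 to 52.6% of astrocyte-like and 0 to 6.15% of oligodendrocyte-like cells.

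Oligodendrocyte-like cells made up 3.30% ± 3.77 of high and 25.8% ± 9.80 of low cells (SD, n = 5 mice), lower in 5 of 5 mice. Endothelial-like cells were at 0.313% ± 0.699 and 5.48% ± 1.74, also lower in 5 of 5 mice. Both reached p = 0.0625 in the two-sided exact sign-flip permutation test, the smallest p that 5 mice can give, and 0.188 after adjustment over the 6 classes. GABAergic-like cells were at 13.3% ± 16.1 of high and 2.18% ± 2.07 of low cells, higher in 4 of 5 mice (exact p = 0.125), and reached 41.2% of the high cells of placebo mouse 5. The glutamatergic-like share was 71.3% ± 13.6 in high and 54.6% ± 16.9 in low cells (exact p = 0.313), with placebo mouse 5 going the other way (52.9% and 76.6%). After thinning to 1000 UMIs, the share of cells with a UMI of Slc17a7, the vesicular glutamate transporter, differed by 1.63 points (exact p = 0.75).

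**Figure D2:**
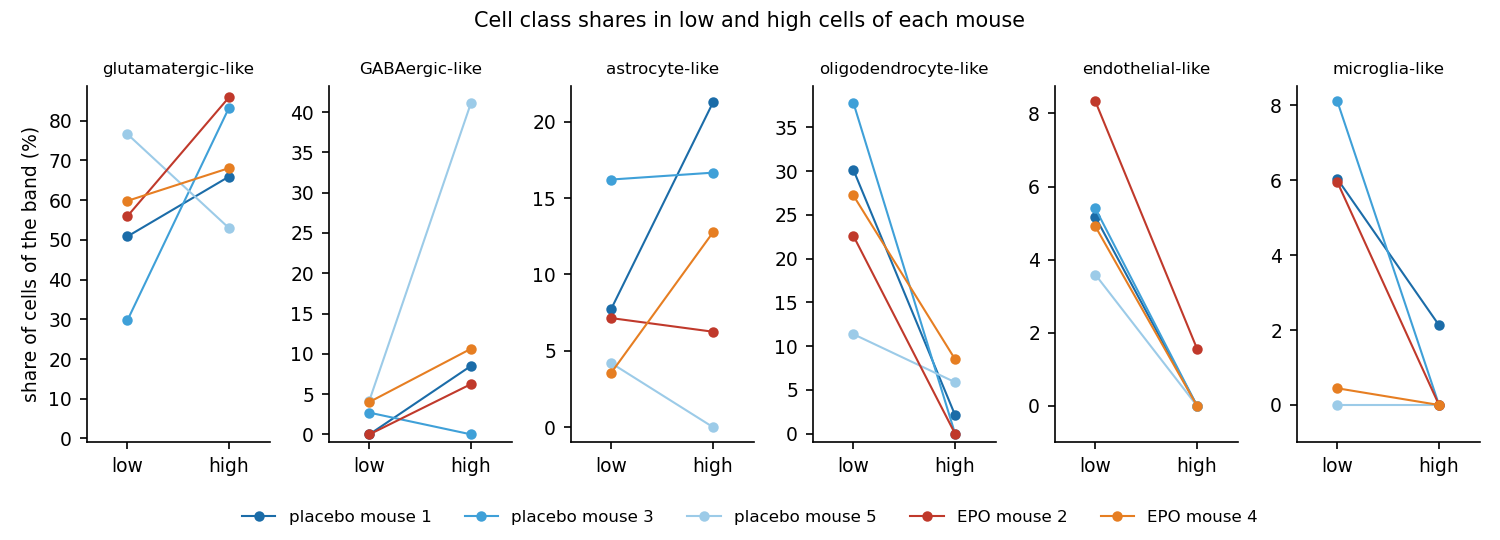
Share of each cell class (%) among the low and the high cells of 5 mice. Each line is 1 mouse; panels have their own vertical scale, and oligodendrocyte-like and endothelial-like shares are lower among high cells in every mouse.

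Across all cells, the UMIs of high and low cells were summed per mouse and compared by edgeR's quasi-likelihood test with the mouse as a block. Of 3964 genes tested, 1663 (42.0%) passed a 5% false discovery rate, 797 higher (20.1%) and 866 lower (21.8%) in high cells. With library totals in place of the trimmed mean scaling, 567 were higher and 1253 lower, and the median change of all genes moved from -0.04 to -0.29 (log2). The mix of classes moved with this contrast. All 9 oligodendrocyte markers were lower, with a median log2 change of -2.43, and their summed share was 0.586% of UMIs in high and 3.63% in low cells. Cnp, a myelin enzyme, fell by 2.71 on the log2 scale (SE 0.36, edgeR adjusted p = 2.5e-05). All 6 tested endothelial markers were lower, while 6 of 7 tested astrocyte markers and 3 of 3 tested GABAergic markers were higher (3 and 2 with DESeq2, none with limma). The contrast was therefore repeated within glutamatergic-like cells.

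In glutamatergic-like cells, 134 high and 485 low, 2790 genes were tested over the 5 mice and 1336 (47.9%) passed, 654 higher (23.4%) and 682 lower (24.4%). The direction was the same in all 5 mice for 362 of the higher and 610 of the lower genes. With library totals 420 were higher and 1046 lower, and the median change of all genes moved from -0.03 to -0.37. A gene with equal CPM in both bands therefore has a log2 change above 0 on the scale used here. Without shared barcodes 1232 of 2564 tested genes passed (48.0%). Leaving out EPO mouse 2, which supplied 55 of the high glutamatergic-like cells, left 831 of 2018 (41.2%). Of 1133 genes called in both contrasts, 1127 had the same direction. The glutamatergic-like cells are also part of the all-cell sums, so this agreement is largely built in and gives no separate support. Of the genes tested, 6 of 7 nuclear long non-coding RNAs and 12 of 16 RNA processing genes were higher, while 68 of 72 OXPHOS genes, 18 of 35 cytosolic ribosomal protein genes and 12 of 18 cytoskeletal genes were lower.

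Nuclear long non-coding RNAs took 20.1% ± 1.75 of non-mitochondrial UMIs in high and 7.19% ± 1.64 in low glutamatergic-like cells (SD, n = 5). The share in high cells was 18.0, 22.6 and 19.7% in placebo mice 1, 3 and 5 and 20.9 and 19.4% in EPO mice 2 and 4, against 4.84 to 9.26% in low cells. The ranges did not overlap, in a contrast where 47.9% of genes passed. Of 7 tested members 6 were higher and 1, 2610017I09Rik (Pantr1), was lower.

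Malat1, an abundant RNA of nuclear speckles (chr19:5795690-5802672, GRCm38), was at 121930, 140851 and 117518 CPM in the high cells of placebo mice 1, 3 and 5, and at 139892 and 118187 in EPO mice 2 and 4. In low cells it was at 51853, 61412 and 32459, and at 45620 and 46086. All high values lay above all low values, and the log2 change was 1.74 (SE 0.19, edgeR adjusted p = 7.5e-11).

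Meg3, an imprinted non-coding RNA of neurons (chr12:109541001-109571726), was at 47313, 71307 and 65875 CPM in high cells of the placebo mice and at 54625 and 61966 in EPO mice 2 and 4. In low cells it was at 21053, 24142 and 11399, and at 15077 and 19338. Its log2 change was 2.05 (SE 0.19). Meg3 was listed beforehand as a marker of these cells, with earlier results of these data known, so its change is a description. Rian, from the same imprinted locus (chr12:109603940-109661716), changed by 1.82 (SE 0.19), and Snhg11, a host gene of small nucleolar RNAs, by 1.44 (SE 0.17). Per cell of equal depth, after thinning to 1000 UMIs, 5 of 5 tested members were higher, with a median of 0.83.

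Of 16 tested genes of nuclear RNA processing, 12 were higher and none lower by edgeR, with a median of 0.99 against -0.03 over all genes. Of these genes 3 were lower with library totals and 2 with DESeq2. Luc7l3, a splicing factor of the U1 particle, was at 2451 to 7667 CPM in high and 919 to 1344 in low cells (log2 change 1.93, SE 0.17, edgeR adjusted p = 1.9e-13). Rbm25 (1.80), Sfrs18 (1.77) and Srrm2 (1.56), all linked to splicing, were also higher, each in 5 of 5 mice. Placebo mouse 3 had the highest Luc7l3 level, over 5 high glutamatergic-like cells. Ddx5 and Hnrnpa2b1 were at -0.43 each and Srsf5 at -0.21, none of which passed.

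Dmd, which encodes dystrophin and spans 2257 kb of chromosome X, had the smallest adjusted p. It was at 1953, 1153 and 1624 CPM in high cells of the placebo mice and at 1738 and 1664 in those of the EPO mice, against 369 to 550 in low cells (log2 change 2.10, SE 0.17, edgeR adjusted p = 3e-14). Nktr, a cyclophilin-related protein, and Csmd1, a large membrane protein, changed by 1.85 (SE 0.17) and 2.25 (SE 0.23).

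Nuclear-encoded OXPHOS genes went the other way from the mitochondrial share. They took 0.609% of non-mitochondrial UMIs in high (0.471 to 0.814% per mouse) and 2.08% in low cells (1.79 to 2.31%). Of 72 tested genes, 68 were lower (45 with limma) and none higher, with a median of -1.69, and the median stayed between -2.03 and -1.50 under the other scalings, limma, thinning and without EPO mouse 2. Cox4i1, a subunit of cytochrome c oxidase, was at 367, 407 and 31.8 CPM in high cells of the placebo mice and at 133 and 145 in EPO mice 2 and 4. In low cells it was at 591 to 827, above all high values (log2 change -1.65, SE 0.25, edgeR adjusted p = 2.8e-07). Ndufa4 was at 62.0 to 270 CPM in high and 517 to 943 in low cells (-1.90, SE 0.25), and Cox8a changed by -1.73 (SE 0.24). The genes that did not pass were Ndufs1 (-0.54) and Ndufv1 (-0.35), subunits of complex I, and the assembly factors Ndufaf4 (0.10) and Ndufaf7 (0.10). Slc25a4, which exchanges ADP and ATP across the inner mitochondrial membrane, was at 414 to 572 CPM in high and 1728 to 2473 in low cells (-1.79, SE 0.19).

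In glutamatergic-like cells no tested gene of the other lists that serve mitochondria or their removal was higher. Of the machinery that transcribes and maintains the mitochondrial genome, 2 of 15 genes were tested and neither passed. Lrpprc, which stabilizes mitochondrial mRNA, was at 0.43 (SE 0.30, adjusted p = 0.23) and the coactivator Ppargc1a at 0.55 (SE 0.34, adjusted p = 0.17). Over all cells, where the mix of classes also differs, 3 genes of this machinery were tested, 1 higher and 1 lower. The higher one was Ppargc1a (0.76, SE 0.28, edgeR adjusted p = 0.034), in 5 of 5 mice, but only 60.9 against 62.6 CPM in placebo mouse 1. With library totals none of the 3 was higher and 1 was lower. All 3 tested mitochondrial chaperones, Hspd1 (-1.19), Hspa9 (-1.16) and Hspe1 (-0.88), were lower. Of 5 tested mitophagy genes 3 were lower, Sqstm1 (-1.40), Map1lc3b (-1.41) and Gabarapl1 (-1.12), where 24.4% of all tested genes were lower. Of 14 tested glycolytic genes 7 were lower and none higher, against 24.4% and 23.4% of all tested genes, with Aldoa at -1.94 and Tpi1 at -1.85, whereas Eno2 was at 0.09 (adjusted p = 0.72). None of 15 apoptosis genes had enough UMIs to be tested in these cells.

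**Figure D3:**
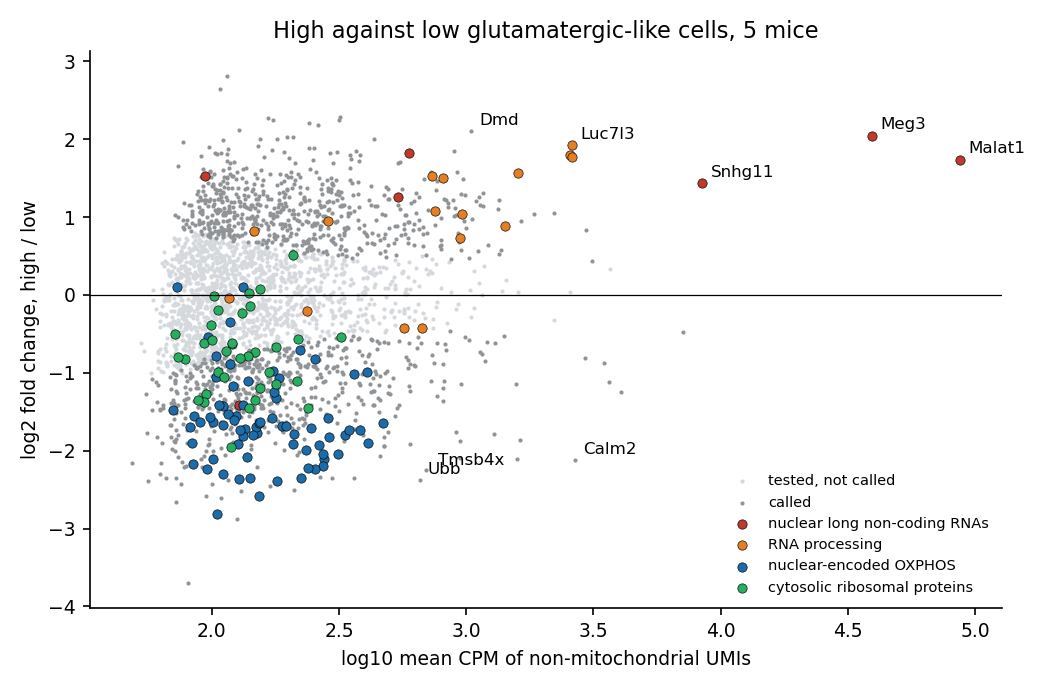
Log2 fold change of high against low glutamatergic-like cells (vertical axis) by mean level (log10 CPM of non-mitochondrial UMIs) for the 2790 genes tested over 5 mice. Grey points are tested genes, darker where called, and colours mark gene lists; nuclear-encoded OXPHOS genes have a median of -1.69 and the non-coding RNAs Malat1 and Meg3 at 1.74 and 2.05.

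Cytosolic ribosomal protein genes took 0.455% of UMIs in high and 1.03% in low cells, lower in 5 of 5 mice, and 18 of 35 tested genes were lower and none higher (median -0.73), beside 24.4% lower and 23.4% higher among all tested genes. limma called 5 of them. The level also differed between libraries. It was at 1.51% and 1.49% in the low cells of placebo mouse 1 and EPO mouse 4, the libraries that share barcodes, and at 0.612 to 0.825% in those of the others. Of 6 tested heat shock genes 5 were lower, among them Hspa8 (-1.94), Hsp90aa1 (-1.15) and Hsp90ab1 (-0.81), beside the same 24.4%.

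Of 18 tested cytoskeletal genes 12 were lower and 3 higher, beside 24.4% and 23.4% of all tested genes. Tmsb4x (-2.11), which binds actin monomers, Actb (-1.87) and Tuba1a (-2.35) were lower, while the microtubule-associated proteins Map1b (0.84), Map2 (0.86) and Map1a (0.57) were higher. Calm2, which encodes calmodulin (chr17:87433412-87446935), was at 1100, 339 and 796 CPM in high cells of the placebo mice and at 945 and 785 in EPO mice 2 and 4. In low cells it was at 4100 to 5325 (log2 change -2.12, SE 0.19, edgeR adjusted p = 1.9e-13). Ubb, a ubiquitin gene, changed by -2.38 (SE 0.22), and Arpc2, of the Arp2/3 actin complex, by -2.25 (SE 0.22).

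Of 18 tested synaptic vesicle genes 2 were higher and 3 lower, beside 23.4% and 24.4% of all tested genes. Rims1 (1.04) and Sv2a (0.66) were higher, and Rab3a (-1.67), Nsf (-0.68) and Vamp2, at 67.9 to 140 CPM in high and 210 to 443 in low cells, were lower. Syt1 and Snap25, of the release machinery, were each at 0.04 and did not pass. The direction of the list depends on the scaling. Its median moved from 0.04 to -0.28 with library totals, and its summed share was 0.786% of UMIs in high and 0.977% in low cells, lower in 5 of 5 mice.

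Of 6 tested glutamatergic markers 3 were lower, beside 24.4% of all tested genes, namely Cck (-1.92), Nrgn (-1.75) and Neurod6 (-1.01), whereas Camk2a was at 0.43 (adjusted p = 0.053) and Slc17a7 at 0.29 (adjusted p = 0.39). Of 9 tested CA1 genes 5 were lower and none higher, the lower ones including Itpka (-1.41) and Pou3f1 (-1.02). The other 4 did not pass, among them Mpped1 (0.37), Man1a (-0.23) and Dcn (-0.43). Tshz2 (1.46) and Hs3st4 (1.17), which mark other cortical or subicular neurons, were higher. Each was the 1 tested member of its list, and Hs3st4 was higher in 4 of 5 mice. Subicular markers, none of them tested, took 0.0280% of UMIs in high and 0.0308% in low cells, higher in 2 of 5 mice. Egr1, an activity-regulated transcription factor, was lower (-1.10), the single call among 4 immediate early genes tested, a share near the 24.4% of all tested genes. Hypoxia genes had 2 of 16 tested, Ldha (-0.98) and Pgk1 (-2.43), both lower and both also counted among the glycolytic genes. Pgk1 was at 0 CPM in the high cells of placebo mice 3 and 5 and of EPO mouse 4. None of 12 genes of EPO receptor and JAK-STAT signaling had enough UMIs.

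RNA of some other cell types moved with the band inside this class, not all in the same direction. Oligodendrocyte markers took 0.287% of UMIs in high (0.0573 to 0.563% per mouse) and 0.187% in low glutamatergic-like cells (0.0454 to 0.367%), higher in 4 of 5 mice, and Mbp (0.86) and Mobp (1.01), both of myelin, were higher. Neither passed with limma. Astrocyte markers took 0.0833% and 0.0467%, and GABAergic markers 0.00214% and 0.00233%. Of 2 tested astrocyte markers, Slc1a2 was higher (1.16) and Aldoc (0.72, edgeR adjusted p = 0.11) did not pass. Endothelial markers took 0.0202% and 0.0272%, lower in 4 of 5 mice, and their 1 tested member, Bsg, was lower (-1.38). Blood markers took 0.0517% and 0.145% as means, although they were higher in 4 of 5 mice. The part of these RNAs in the other differences was not tested.

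Barcodes too small to be retained held the same RNAs in another mix. In the 726 to 956 barcodes per mouse with UMIs and at most 1000 genes, the mitochondrial share had medians of 15.9 to 50.3%. Nuclear long non-coding RNAs took 12.1 to 14.2% of their non-mitochondrial UMIs, below the 15.2 to 20.9% of all high cells and above the 4.62 to 7.04% of all low cells of the 5 mice. Nuclear-encoded OXPHOS genes took 0.992 to 1.35% of UMIs in these small barcodes and 0.545 to 1.06% in high cells.

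Genes that were higher spanned more of the genome. For glutamatergic-like cells, 99.1% of tested genes had a position in GENCODE vM21 (GRCm38). The median genomic span was 84.7 kb for genes called higher, 14.5 kb for genes called lower and 44.4 kb for genes not called. The genes were also ordered by span and divided into 5 groups of equal size. In the group with the shortest spans (up to 12.1 kb) 4.33% were called higher and 54.0% lower, and in the group with the longest (from 118 kb) 41.8% and 6.15%. Across the genes, which are not independent replicates, Spearman's rho of span and log2 change was 0.494. The median length of exons followed the same order, with 10.3 kb and 3.04 kb for genes called higher and lower.

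**Figure D4:**
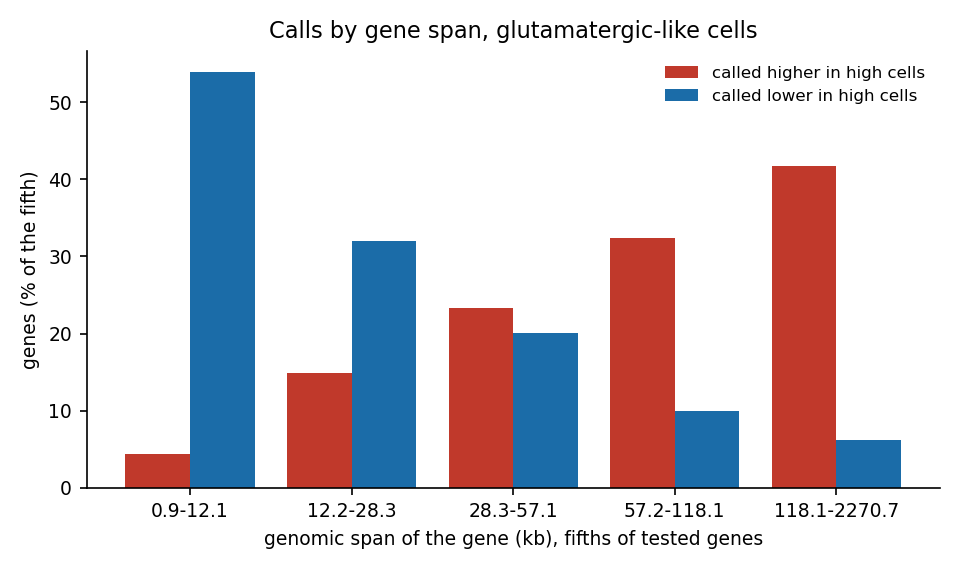
Genes called higher (red) or lower (blue) in high glutamatergic-like cells, in % of each of 5 equal groups of the tested genes ordered by genomic span (kb). The share called higher goes from 4.33% in the shortest to 41.8% in the longest group, and the share called lower from 54.0% to 6.15%.

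The change in non-mitochondrial RNA lay mostly below the 20% boundary. Within glutamatergic-like cells, nuclear long non-coding RNAs took 3.19% of UMIs (2.59 to 3.79%) in cells with up to 5% mitochondrial UMIs, as a mean and range over those mice that had 5 or more cells there. They took 18.2 to 20.9% at 15 to 20% mitochondrial UMIs, and 19.4, 20.6 and 19.1% (means) at 20 to 25, 25 to 30 and 30 to 40%. Nuclear-encoded OXPHOS genes fell from 2.44 to 3.18% of UMIs in the lowest bin to 0.466 to 0.848% at 15 to 20%, and were at 0.386 to 0.682% at 30 to 40%. Calm2 was at 0.505 to 0.644% in the lowest bin and at 0.0820 to 0.123% at 15 to 20%. To the right of the boundary, the plot by mitochondrial share has non-coding RNA between 16.0 and 22.0% in every mouse with a value there.

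The mitochondrial share at which this change occurred was not the same in every mouse. At 5 to 10% mitochondrial UMIs, non-coding RNAs took 4.04% and 5.47% of UMIs in placebo mice 1 and 5 and 3.89% and 6.09% in EPO mice 2 and 4, but 21.4% in the 23 cells of EPO mouse 6. OXPHOS genes in the same bin were at 1.93 to 2.54% in the first 4 and at 0.679% in EPO mouse 6. Both of its values lay inside the ranges of high glutamatergic-like cells of the other mice (18.0 to 22.6% and 0.471 to 0.814%).

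**Figure D5:**
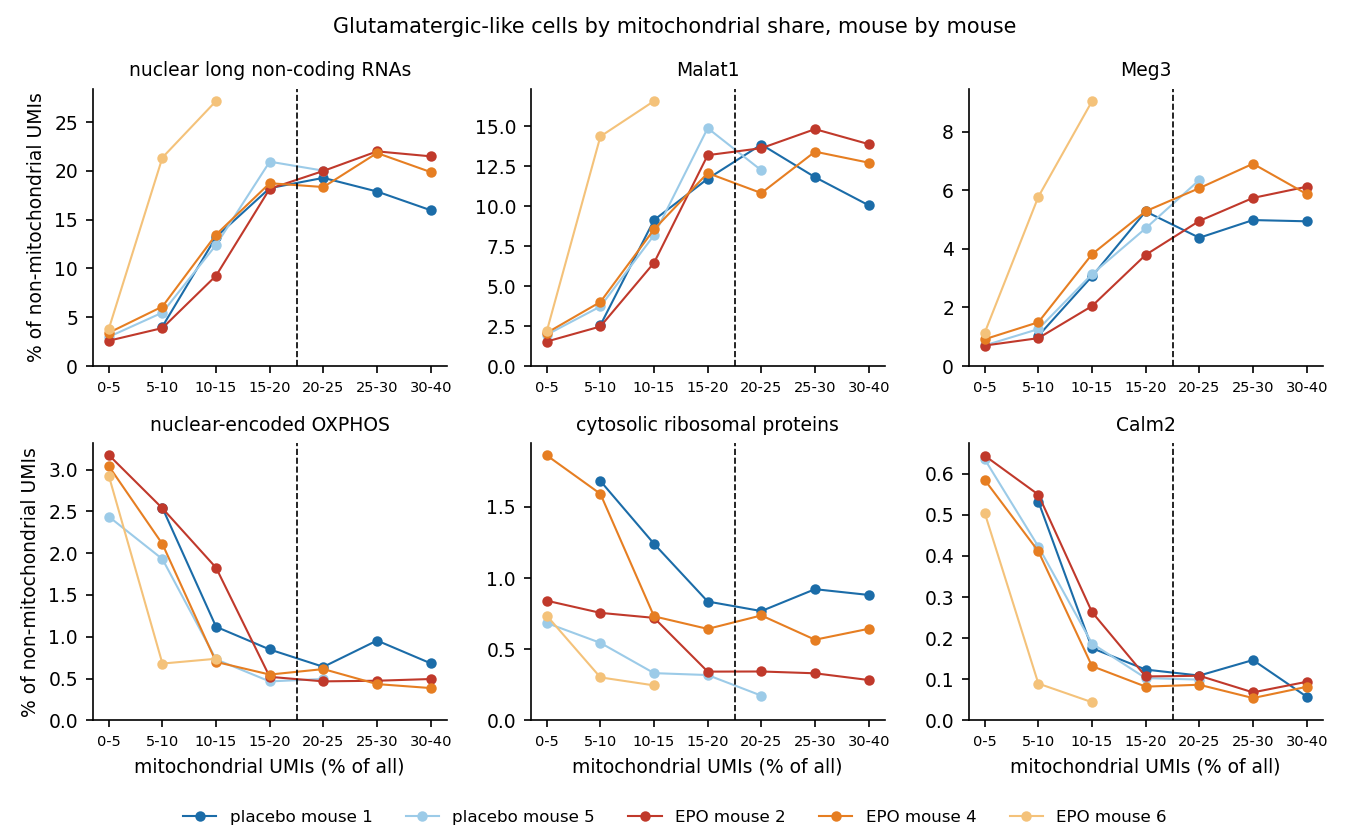
Level of gene lists and single genes (% of non-mitochondrial UMIs) in glutamatergic-like cells, by bins of the mitochondrial share (% of all UMIs). Each line is 1 mouse, each point a bin with at least 5 cells (placebo mouse 3 has none), and the dashed line marks 20%; EPO mouse 6 reaches 21.4% non-coding RNA at 5 to 10% mitochondrial UMIs, where the other mice are at 3.89 to 6.09%.

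Most high cells shared clusters with low cells. Of the 134 high glutamatergic-like cells, 121 (90.3%) lay in 2 clusters, led by Meg3 and Snhg11, which also held 149 of the 485 low cells (30.7%). Cluster 1, with Arpp21, Tshz2 and Fut9 among its leading genes, had 75 high cells of 132, and cluster 0, with Dmd and Grin2b, had 46 of 138. The larger-UMI clusters 2 and 10, led by Hpca, Calm2 and Nrgn, had 1 high cell of 129 and 0 of 33. Of the cells of clusters 0 and 1, 49.2, 50 and 24.1% were high in placebo mice 1, 3 and 5, 77.4 and 40.8% in EPO mice 2 and 4, and 2.94% (1 of 34) in EPO mouse 6. These cells had a median mitochondrial share of 7.10% in EPO mouse 6 and of 16.1 to 23.9% in the others. In each mouse this was above the median of the other glutamatergic-like cells, whose lowest and highest values were 1.96% (EPO mouse 6) and 10.0% (EPO mouse 2).

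Inside these clusters no gene passed the test. In cluster 0 (3 mice, 44 high and 50 low cells) edgeR called 0 of 1033 genes, with 56 at an unadjusted p under 0.05, and in cluster 1 (4 mice, 70 and 48 cells) 0 of 892, with 67. Genes called higher in the whole class, with a median change of 1.03 and 1.05 among those tested there, had medians of 0.13 and 0.14 within clusters 0 and 1. Those called lower had medians of -0.26 and -0.27. The clusters were built from the same genes, which by itself makes their cells alike. Meg3 changed by 0.09 (SE 0.12) in cluster 0 and 0.34 (SE 0.13) in cluster 1, and Malat1 by 0.12 (SE 0.11) and 0.29 (SE 0.12). Dmd was at 1.04 in cluster 1 (SE 0.24, edgeR adjusted p = 0.051).

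The high cells of EPO mice 2 and 4 were compared with those of the 3 placebo mice, and edgeR called 0 of 3392 genes (0%), with 55 at an unadjusted p under 0.05, while DESeq2 and limma called 0 as well. The smallest p belonged to Rgs5, a marker of mural cells (log2 change -5.36, SE 1.24, edgeR adjusted p = 0.998). It was at 1064 CPM in placebo mouse 5, 90.4 in placebo mouse 1 and 0 in placebo mouse 3, and at 4.94 and 13.8 in EPO mice 2 and 4, so the groups overlapped. With the D number as a term, Rgs5 alone was called (-5.37, SE 0.86, edgeR adjusted p = 0.0192), and in glutamatergic-like cells alone Hbb-bs (-2.32) and Cst3 (-1.64) were called, both lower in EPO mice. Hbb-bs was at 1176, 204 and 31.8 CPM in these cells of placebo mice 1, 3 and 5. In EPO mice 2 and 4 it was at 110 and 134, so the groups overlapped for Hbb-bs as well. Without the filter on low counts 6 genes were called, all lower in EPO mice, among them Rgs5 and the smooth muscle genes Myh11, Acta2 and Tagln. The change from low to high cells differed between treatments for 0 of 3964 genes (0%; edgeR, interaction term, 61 at an unadjusted p under 0.05, and 0 with DESeq2 and limma). With 3 placebo and 2 EPO mice, these counts do not show that treatment left the high cells unchanged. Meg3 and Malat1 were higher in high cells in each of the 3 placebo and both EPO mice, as given above.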

How the data were processed

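Drop-seq UMI counts of CA1 cells from 3 placebo-treated and 3 EPO-treated mice were analysed. The authors deposited raw counts of 20234 genes in 1000 barcodes per mouse, with no normalization. Per the submitters' processing notes bcl2fastq 2.15, STAR 2.4.0 and mm10 were used, and the gene annotation is not given in the sources used here. How the reads were assigned to genes decides whether reads from introns or nuclear copies of mitochondrial genes were counted. Missing values were set to 0. UMIs of retained cells summed to 194175, 23827 and 71446 in high cells of placebo mice 1, 3 and 5 and to 279828, 196682 and 10946 in those of EPO mice 2, 4 and 6. In low cells they summed to 180652 to 1751808 per mouse. Among the 5 mice compared between bands, placebo mouse 3 therefore gives the least precise values.

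Counts without the 27 mitochondrial genes were log-normalized, integrated between treatments by canonical correlation (20 dimensions, 1000 variable genes per treatment) and clustered at resolution 1 in Seurat 5.3.0. Clusters were named from marker lists by their mean level, with at least 3 markers in at least 10% of cells. Doublets were called per mouse by Scrublet (scanpy 1.11.5) and kept. It marked 23.3% of the cells of placebo mouse 3, where its calls are not usable, and at most 3.66% elsewhere, with 4 of the high cells in all.

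UMIs were summed per mouse and band where both bands held at least 5 cells and tested by edgeR 4.0.16 (quasi-likelihood, trimmed mean scaling, filter on low counts, Benjamini-Hochberg adjustment at 5%). For high against low cells the mouse was a block, and EPO was compared with placebo over 5 mice. DESeq2 1.42.0 and limma 3.58.1 were alternatives. The procedure was tested on simulated data. CPM are computed on non-mitochondrial UMIs unless stated, and log2 changes are high against low. Shares of cells were compared by exact permutation over mice. A test within oligodendrocyte-like cells was planned and not made, since no mouse had 5 such cells in both bands. Other alternatives were the boundary, the gene filter, thinning, doublets and each mouse left out. Leaving out shared barcodes and comparing treatments in glutamatergic-like cells alone were chosen after seeing the data.

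The members and gene lists were chosen with earlier results of these data known. Named are all mitochondrial genes with enough UMIs, up to 10 genes per direction with the smallest adjusted p and the same direction in every mouse, and the most abundant members of each list. Genes outside that rule are named where they did not pass or complete a count, and were chosen after their values were seen.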

Additional observations from a re-analysis of the deposited data

How the results depend on the processing

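Counts of called genes in high against low cells are given for all cells and, in parentheses, for glutamatergic-like cells, where edgeR called 1663 (1336). limma called 794 (663), a boundary of 15% gave 2613 (2385), and thinning to 1000 UMIs, which left 939 (650) genes to test, gave 322 (204). Leaving out each mouse gave 952 to 2115 (831 to 1992), lowest without EPO mouse 2. With DESeq2, library totals, no gene filter, no mouse block, a boundary of 25%, a low band up to 10%, and without called doublets or shared barcodes, counts stayed within 1.5 times of these. The numbers of genes tested differed, and so did the share called, at 42.0% (47.9%) as reported. It was 11.5% (11.0%) of 18875 (17350) genes without the gene filter. At the boundary of 25%, with 4 (3) mice, it was 21.9% (17.7%) of 6807 (5680). Of the calls, 31.2% (28.6%) were higher with library totals, 24.2% (19.6%) without the gene filter, 28.6% (44.7%) at the boundary of 25%, 37.9% (35.3%) after thinning and 47.9% (49.0%) as reported. For EPO against placebo in high cells, 6 genes were called without the gene filter, 1 (Rgs5) with the D number as a term and 2 (Hbb-bs and Cst3) in glutamatergic-like cells only, against 0. For the difference between treatments, 2 (Myh11 and Rgs5) were called without the gene filter, and 0 to 5 when each mouse was left out, the 5 being Igfbp7, Aldoc, Clu, Cald1 and Aqp4 without placebo mouse 1. The difference in the share of high cells ranged from -7.76 to 13.0 percentage points when each mouse was left out and kept its direction under the other settings. The causes were not tested. The glutamatergic-like share was higher in high cells in every setting run, although a p under 0.05 was out of reach except at the boundary of 15%, which has 6 mice. Named genes kept direction and call in 2416 of 2612 gene and setting pairs, lost the call in 136, gained it in 60 and never reversed a call.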

Other observations

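High cells of the GABAergic-like and astrocyte-like classes, 21 cells each over all mice, were not tested across genes. In the same gene range, 12 further barcodes exceeded 40% mitochondrial UMIs, 5 in placebo mouse 1, 3 each in EPO mice 2 and 4 and 1 in placebo mouse 5, and went into no comparison.

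Placebo mouse 3 contributed 6 high cells and 17042 non-mitochondrial UMIs, so its values carry large counting error. High and low cells come from the same droplet runs, and reads of introns and exons cannot be told apart in the deposited counts. The meaning of the D number is not known, and D1 and D2 hold 2 placebo and 1 EPO and 1 placebo and 2 EPO mice.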
